A study of Mus musculus with 9 samples.

Results

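The genes described here are 40 members of the glycolytic pathway and of the transcriptional response to low oxygen. They were taken by symbol among the 54281 genes listed in each library, with earlier results of these data known. They comprise 2 glucose transporter genes, 15 genes of glycolytic enzymes, 2 genes of glycolytic regulators, 6 genes that set the fate of pyruvate and lactate, 11 genes of the hypoxia response and 4 genes of oxygen sensing. All 40 had enough reads to be tested. Aldoa lies on 2 identifiers, of which the one overlapping the annotated gene body was used and the other stayed between 0.44 and 1.32 CPM (estimated reads scaled to a common library size, with a correction for composition).

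The RNA came from Comma-1D, a mouse mammary epithelial line from the American Type Culture Collection grown with serum, EGF and insulin, so all 9 libraries derive from 1 line. Cells were sorted on Sca-1 and EpCAM into bi (high for both), L (Sca-1 low, EpCAM high) and B (Sca-1 high, EpCAM low). Each population was sequenced once after transduction with activated MYC, once after transduction with activated Her2, and once as a control. The transgenes' vector, promoter and species, a vector in the control cells, separate cultures and the oxygen level of culture are not given in the sources used here, and no group was labelled as kept in low oxygen.

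Glycolysis turns glucose into pyruvate in the cytosol. Pyruvate then either enters the mitochondria through the pyruvate dehydrogenase complex or is reduced to lactate, which leaves the cell through monocarboxylate transporters. The hypoxia-inducible factors are pairs of an oxygen-regulated alpha subunit (Hif1a, Epas1) and a stable partner. At normal oxygen, prolyl hydroxylases of the EGLN family mark the alpha subunit for degradation, and at low oxygen it accumulates and activates genes for glucose uptake, glycolysis, pH control, mitophagy, collagen modification and vessel growth. Egln3 is itself a target of this response. MYC is also known to activate genes of glycolysis, and signalling from Her2 raises HIF-1 alpha protein in some cells.

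The libraries held 53391145 to 98874101 reads in bi, 69340422 to 75625065 in L and 46915316 to 54012699 in B. The 40 genes took 0.978% of all reads in L MYC, the lowest share, and 1.44% in B MYC, the highest. Myc lay at 188 to 285 CPM in MYC libraries, against 83.3 to 114 CPM in controls, and Erbb2 at 189 to 651 CPM in Her2 libraries, against 53.3 to 88.9 CPM in controls. The basal keratin genes Krt5 and Krt14 were at 569 to 2422 CPM in every library, whereas Epcam, Cdh1, Krt8 and Krt18 reached at most 4.27 CPM in B. The 7 fibroblast markers summed to 23.8 to 39.3 CPM in bi, 18.9 to 20.7 in L and 85.4 to 149 in B, Pdgfra alone lay at 11.8 to 28.9, 13.8 to 14.4 and 52.2 to 102 CPM, and Col1a2 was at 0 in L Her2. Of these 7, 5 were lower in L than in B and 3 lower in bi than in B by edgeR. Endothelial, leukocyte and adipocyte markers summed to at most 5.92, 8.69 and 5.17 CPM in any library. Ly6a, which encodes Sca-1, lay at 15.9 to 139 CPM in bi, 2.37 to 12.8 in L and 19.5 to 112 in B. Fibroblast marker level thus moved with the population and depth was lower in B than in L, and their part in the population differences below was not tested.

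**Figure D1:**
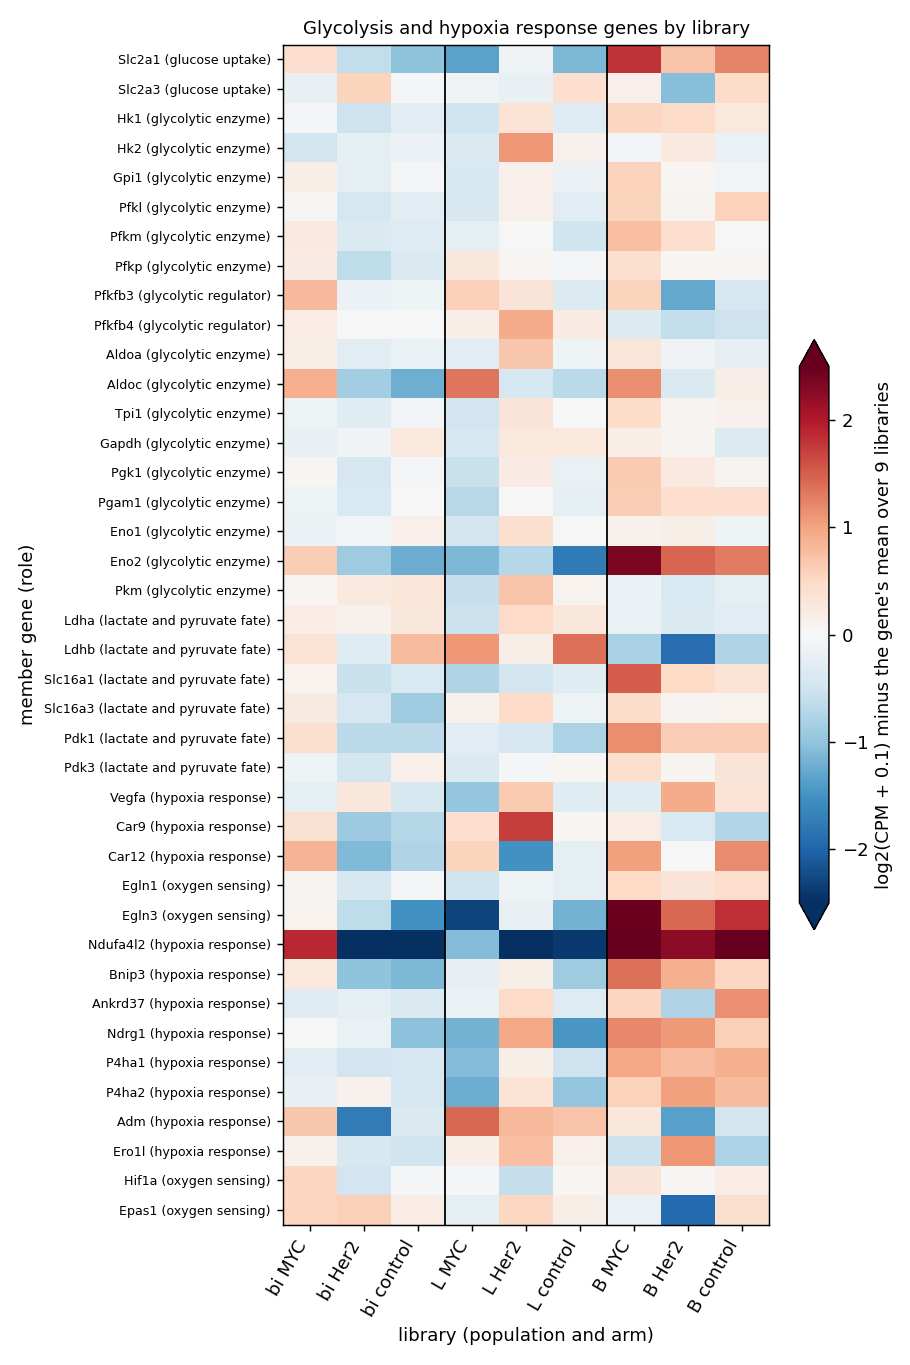
Level of each of the 40 genes (rows, with role) in each of the 9 libraries (columns), as log2(CPM + 0.1) minus the gene's mean over the libraries, with red above and blue below that mean. Ndufa4l2, Egln3, Eno2 and Slc2a1 are red in the 3 B columns, and Ldhb is blue there.

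Population was compared with the arm as a block and arm with the population as a block, in 1 edgeR quasi-likelihood model over the 9 libraries. Log2 fold changes are given ± their standard error (SE), and calls were made where the p, adjusted by Benjamini-Hochberg over the 23834 genes tested, was under 0.05. No population and arm has a replicate, so the residual, with 4 degrees of freedom, holds library noise together with any arm effect that differs between populations. The fit also draws each gene's spread toward that of the other genes, so the p-values do not rest on these 4 degrees alone. In bulk RNA, fewer cells of a type and less RNA per cell cannot be told apart.

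Of the 40 genes, 14 were lower in L than in B and 3 were higher, against 9.26% of all tested genes that were lower and 11.5% that were higher. The median log2 fold change of the 40 was -0.38, against 0.04 over all tested genes. On GRCm38 the genes with the largest differences in either direction are Ndufa4l2 (chr10:127514967-127517154, plus strand), Egln3 (chr12:54178981-54203860, minus), Eno2 (chr6:124760053-124769673, minus), Slc2a1 (chr4:119108711-119137983, plus) and Ldhb (chr6:142490249-142507957, minus). Of the 15 glycolytic enzyme genes, 12 were not called. In bi against B, 10 of the 40 were lower and 1 was higher, against 5.11% and 7.88% of all tested genes, with a median of -0.45 against 0.03. Both comparisons use the same 3 B libraries, so their values are set side by side and are not independent.

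**Figure D2:**
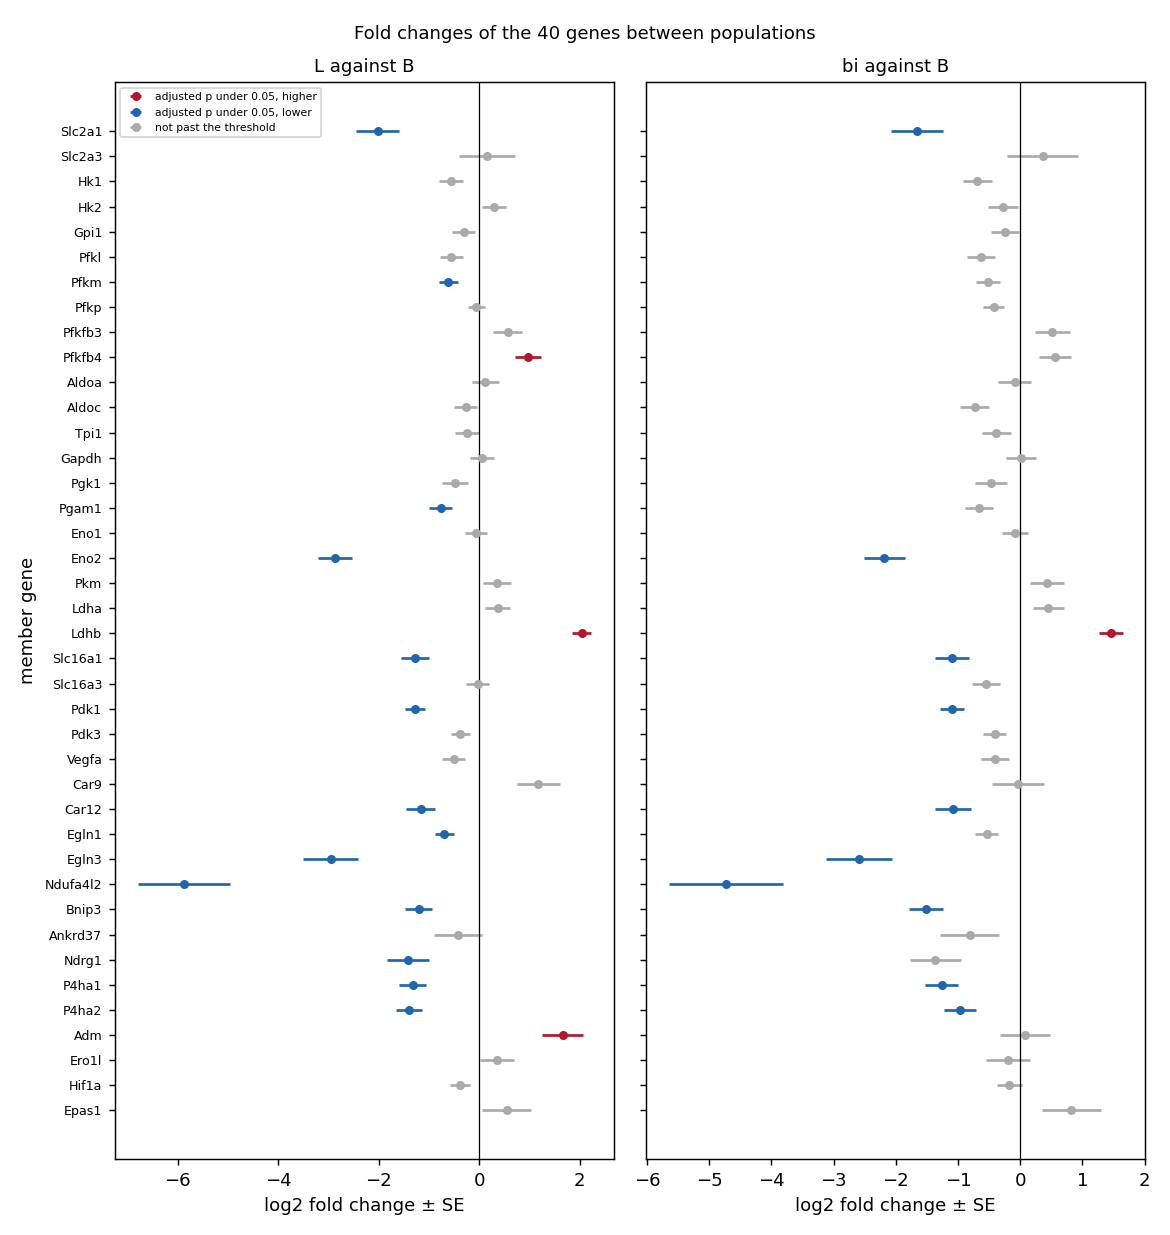
Log2 fold change (horizontal axis) with its SE for each of the 40 genes (vertical axis) in L against B (left) and bi against B (right), blue where the gene was called lower, red where called higher and grey where not called. Ndufa4l2 lies farthest to the left at -5.88 in L against B and -4.73 in bi against B.

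The glucose transporter gene Slc2a1 (GLUT1) was at 359.8, 175 and 132 CPM in the MYC, Her2 and control libraries of bi, at 106, 251 and 123 CPM in those of L and at 940.4, 438 and 629.6 CPM in those of B. All 6 libraries of bi and L lay below all 3 of B. Slc2a1 fell in L against B (log2 fold change -2.02 ± 0.43, adjusted p = 0.00839 by edgeR) and in bi against B (log2 fold change -1.66 ± 0.41, adjusted p = 0.0270 by edgeR). The other transporter gene, Slc2a3 (GLUT3), stayed between 0.10 and 0.52 CPM and had 5.4 to 45.5 reads per library, and neither comparison called it.

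Among the 15 glycolytic enzyme genes, 3 were lower in L than in B and none was higher, with a median log2 fold change of -0.27. The enolase isozyme gene Eno2 moved most. It was at 16.0, 5.57 and 4.34 CPM in bi, 4.71, 6.32 and 2.99 CPM in L and 53.2, 28.6 and 25.8 CPM in B, again in the order MYC, Her2 and control. B did not overlap with either other population. Eno2 fell in L against B (log2 fold change -2.87 ± 0.34, adjusted p = 0.000349 by edgeR) and in bi against B (log2 fold change -2.18 ± 0.33, adjusted p = 0.00253 by edgeR). Pgam1, the phosphoglycerate mutase gene, was at 442, 725 and 613 CPM in L and 1103, 960.0 and 955 CPM in B, with no overlap. It fell in L (log2 fold change -0.77 ± 0.23, adjusted p = 0.0369 by edgeR). The phosphofructokinase gene Pfkm fell in L as well (log2 fold change -0.62 ± 0.19, adjusted p = 0.0478 by edgeR), although its highest L library, at 41.1 CPM, lay above its lowest B library, at 40.6 CPM. The other 12 enzyme genes, Hk1, Hk2, Gpi1, Pfkl, Pfkp, Aldoa, Aldoc, Tpi1, Gapdh, Pgk1, Eno1 and Pkm, were not called, with log2 fold changes between -0.56 (Hk1) and 0.35 (Pkm). In bi against B, Eno2 was the only enzyme gene called by edgeR, and the 15 had a median of -0.43.

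The 2 regulator genes encode enzymes that set the level of an activator of phosphofructokinase. Pfkfb4 was at 7.52, 12.9 and 7.75 CPM in L and 5.21, 4.29 and 4.62 CPM in B, with no overlap, and rose in L (log2 fold change 0.97 ± 0.26, adjusted p = 0.0264 by edgeR). Pfkfb3 was not called (log2 fold change 0.57 in L against B, adjusted p = 0.212 by edgeR). In bi against B neither was called (0.56 for Pfkfb4 and 0.52 for Pfkfb3, adjusted p = 0.202 and 0.288 by edgeR).

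Ldhb, the lactate dehydrogenase subunit that favours the conversion of lactate to pyruvate, was the member with the largest rise in L and in bi. It was at 13.6, 8.43 and 18.3 CPM in bi, 22.2, 11.6 and 27.2 CPM in L and 5.90, 2.74 and 6.22 CPM in B. Every library of bi and L lay above every library of B. Ldhb rose in L against B (log2 fold change 2.04 ± 0.19, adjusted p = 8.26e-05 by edgeR) and in bi against B (log2 fold change 1.46 ± 0.19, adjusted p = 0.00105 by edgeR). Ldha, which encodes the subunit that favours lactate, was at 898 to 1818 CPM in all libraries and was not called (0.37 in L and 0.45 in bi). Slc16a1, the gene of the lactate transporter MCT1, was at 232, 148 and 167 CPM in bi, 128, 157 and 176 CPM in L and 622, 308 and 274 CPM in B. B lay above both other populations without overlap, and B MYC was the highest library. Slc16a1 fell in L (log2 fold change -1.28 ± 0.28, adjusted p = 0.0103 by edgeR) and in bi (log2 fold change -1.10 ± 0.28, adjusted p = 0.0289 by edgeR). Slc16a3, the gene of the lactate exporter MCT4, was not called (-0.04 and -0.55).

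Pdk1, whose kinase restrains the entry of pyruvate into the mitochondria, was at 68.9, 33.4 and 33.1 CPM in bi, 43.7, 39.0 and 30.4 CPM in L and 118, 80.1 and 80.1 CPM in B. The B libraries were again the 3 highest. It fell in L (log2 fold change -1.28 ± 0.19, adjusted p = 0.00136 by edgeR) and in bi (log2 fold change -1.09 ± 0.19, adjusted p = 0.00563 by edgeR). Its relative Pdk3 had log2 fold changes of -0.38 and -0.41 and was not called.

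The 11 genes of the hypoxia response had a median log2 fold change of -1.17 in L against B, with 6 lower and 1 higher, and of -0.97 in bi against B, with 5 lower and none higher. Ndufa4l2, which encodes a mitochondrial protein related to a respiratory chain subunit, spanned a 177-fold range. It was at 18.8, 0.492 and 0.533 CPM in bi, 2.31, 0.718 and 0.871 CPM in L and 87.2, 24.2 and 86.6 CPM in B. Bi MYC, at 18.8 CPM, came near B Her2, at 24.2 CPM, and the 5 other libraries of bi and L lay below 2.4 CPM. Ndufa4l2 fell in L (log2 fold change -5.88 ± 0.92, adjusted p = 0.00168 by edgeR) and in bi (log2 fold change -4.73 ± 0.92, adjusted p = 0.00895 by edgeR). Its relative Ndufa4, a subunit of the respiratory chain, was not called (0.62 and 0.27).

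Bnip3, a mitophagy receptor gene, was at 69.4, 28.6 and 26.4 CPM in bi, 50.0, 64.0 and 31.1 CPM in L and 149, 107 and 82.4 CPM in B. The B libraries were the 3 highest, and B control was closest to the others. Bnip3 fell in bi (log2 fold change -1.51 ± 0.27, adjusted p = 0.00580 by edgeR) and in L (log2 fold change -1.20 ± 0.27, adjusted p = 0.0106 by edgeR). The collagen prolyl hydroxylase gene P4ha1 was at 79.2, 68.0 and 70.2 CPM in bi, 44.2, 104 and 66.1 CPM in L and 184, 160.4 and 176 CPM in B. It fell without overlap in L (log2 fold change -1.33 ± 0.27, adjusted p = 0.00686 by edgeR) and in bi (log2 fold change -1.26 ± 0.27, adjusted p = 0.0130 by edgeR). P4ha2, which encodes the other such subunit among the 40, was at 29.3, 36.2 and 24.7 CPM in bi, 14.1, 42.5 and 16.9 CPM in L and 50.2, 68.1 and 57.5 CPM in B. It fell in L (log2 fold change -1.40 ± 0.26, adjusted p = 0.00431 by edgeR) and in bi (log2 fold change -0.97 ± 0.25, adjusted p = 0.0338 by edgeR), and L Her2 was the library of L and bi nearest to B.

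Ndrg1, a stress-response gene, was at 91.1, 81.8 and 44.7 CPM in bi, 40.2, 179 and 33.3 CPM in L and 209, 192 and 138 CPM in B. L Her2 overlapped with B, and the other L libraries did not. Ndrg1 fell in L (log2 fold change -1.42 ± 0.42, adjusted p = 0.0395 by edgeR), while in bi it just missed the threshold (log2 fold change -1.36 ± 0.41, adjusted p = 0.0549 by edgeR). The carbonic anhydrase gene Car12 was at 356, 91.6 and 117 CPM in bi, 290.4, 69.6 and 169 CPM in L and 402, 198 and 446 CPM in B. It fell in L (log2 fold change -1.17 ± 0.29, adjusted p = 0.0190 by edgeR) and in bi (log2 fold change -1.08 ± 0.29, adjusted p = 0.0392 by edgeR), yet bi MYC and L MYC lay above B Her2. Adm, the gene of the vasodilator adrenomedullin, was low throughout, at 3.62, 2.29 and 2.14 CPM in L and 1.57, 0.435 and 0.893 CPM in B, and rose in L (log2 fold change 1.66 ± 0.41, adjusted p = 0.0172 by edgeR). In bi against B Adm was not called (log2 fold change 0.07, adjusted p = 0.940 by edgeR). Vegfa, Car9, Ankrd37 and Ero1l were not called in either comparison.

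Of the 4 oxygen-sensing genes, the prolyl hydroxylase gene Egln3 was called in both comparisons and Egln1 in L against B only. The alpha subunit genes Hif1a and Epas1 were not called. Egln3 was at 35.1, 21.3 and 11.5 CPM in bi, 6.53, 29.1 and 14.4 CPM in L and 180.5, 89.0 and 117 CPM in B. The lowest B library was still above the highest of the other 6. Egln3 fell in L (log2 fold change -2.96 ± 0.56, adjusted p = 0.00457 by edgeR) and in bi (log2 fold change -2.60 ± 0.53, adjusted p = 0.0116 by edgeR). Egln1, at 63.0, 81.9 and 74.9 CPM in L and 126, 112 and 120.0 CPM in B, fell in L (log2 fold change -0.70 ± 0.18, adjusted p = 0.0242 by edgeR). In bi against B Egln1 was not called (log2 fold change -0.54, adjusted p = 0.0872 by edgeR). Hif1a mRNA had log2 fold changes of -0.38 in L and -0.17 in bi, and the oxygen control of its product acts on the protein, which was not measured.

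**Figure D3:**
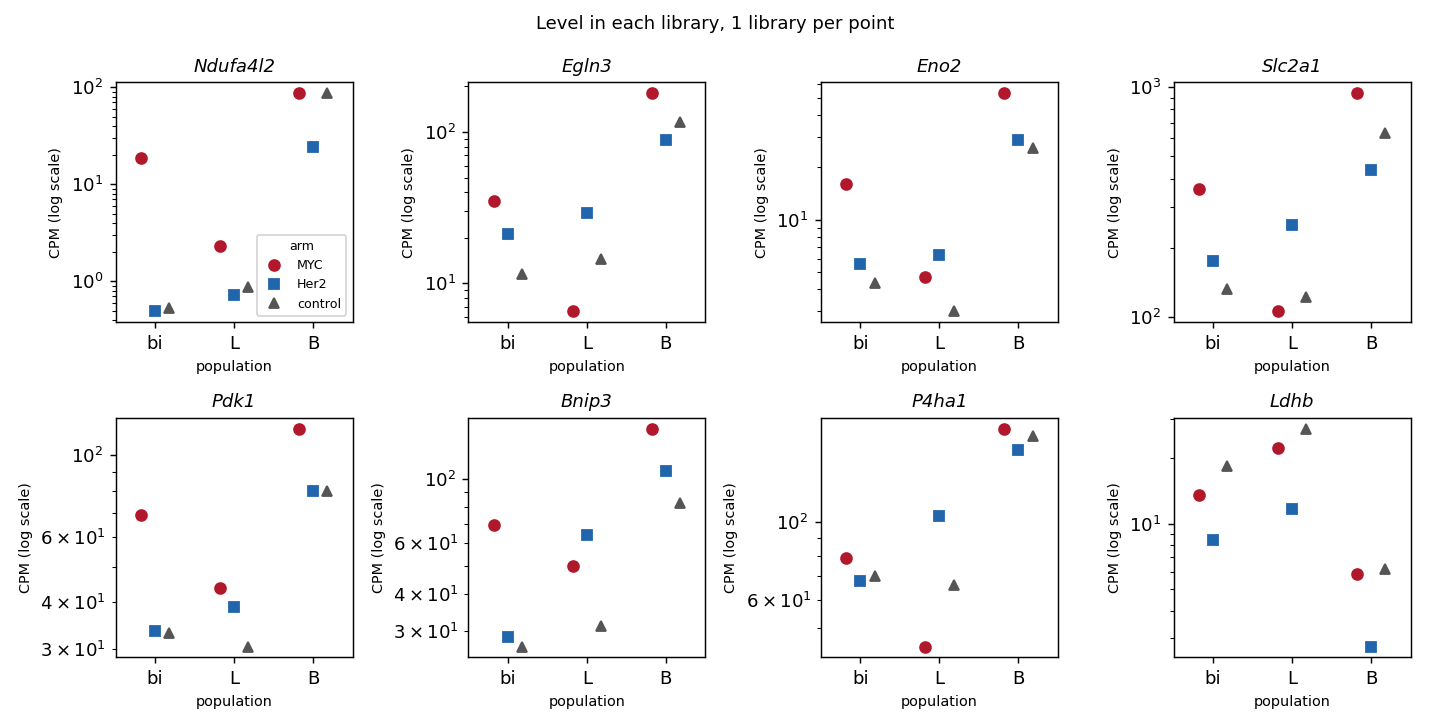
CPM on a log axis for 8 genes in each library, with populations along the horizontal axis and the arm given by colour and shape, 1 library per point. The 3 B points lie above all others for Egln3, Eno2, Slc2a1, Pdk1, Bnip3, P4ha1 and Ndufa4l2, and below all others for Ldhb.

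Calls in L against B that did not depend on a single library were those of Ldhb, Ndufa4l2, Egln3, Eno2, Slc2a1, P4ha2, P4ha1, Pdk1, Slc16a1 and Bnip3. Adm missed the threshold without B MYC, B Her2 or L Her2 (adjusted p = 0.0624, 0.0726 and 0.0608 by edgeR), Pfkfb4 without B MYC, B Her2, L control or L Her2 (0.0599, 0.114, 0.0629 and 0.107) and Ndrg1 without B control, B MYC, L control or L MYC (0.118, 0.116, 0.16 and 0.144). Car12 was lost without B control, B Her2, L control or L Her2 (0.0882, 0.0703, 0.0505 and 0.0842), Egln1 without B MYC, B Her2, L control or L MYC (0.0926, 0.0636, 0.105 and 0.121), and Pgam1 and Pfkm without any 1 of B MYC, B Her2, L control, L MYC, bi control and bi MYC (up to 0.143 and 0.231). Without B MYC or without L control, edgeR called 11 of the 40.

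In bi against B the calls of Ldhb, Eno2, Bnip3 and Pdk1 held without each library in turn. Without bi Her2 edgeR called 4 of the 40 genes, without bi control 6 and without B MYC 7. Ndufa4l2 missed the threshold without bi Her2 (adjusted p = 0.0506 by edgeR), Egln3 without B MYC or bi Her2 (0.0756 and 0.0588) and P4ha1 without B MYC, bi control or bi Her2 (0.073, 0.0511 and 0.0628). Slc2a1 did so without B control, B MYC, bi control or bi Her2 (0.088, 0.123, 0.109 and 0.112), P4ha2 without the same 4 libraries (0.0916, 0.127, 0.12 and 0.131), Car12 without B control, B Her2, bi control or bi Her2 (0.116, 0.144, 0.17 and 0.105), and Slc16a1 without B MYC, B Her2, bi control, bi MYC or bi Her2 (0.153, 0.0616, 0.0854, 0.106 and 0.109).

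The promoters of the members, called or not, were read for the core of the hypoxia response element, ACGTG or GCGTG on either strand. RefSeq windows of 250 bases before to 50 after the annotated start, on GRCm38.p6, matched 36 of the 40 genes and gave 50 windows. Windows of Slc2a3, Epas1, Ndrg1 and Ndufa4l2 were not used here. The palindrome CACGTG holds ACGTG on both strands and counts as 2 matches. The core was found in 40 of the 50 windows (80%), against 14380 of all 32851 windows (43.8%), and CACGTG in 12%, against 7.15%. The median number of CpG pairs was 20 per window, against 7 over all windows, and the part of base composition in these shares was not tested. The core was in 12 of 16 windows (75%) from 12 genes lower in L than in B, and in 28 of 34 (82.4%) from 24 other members. Some genes, such as Pfkm, gave several windows, so windows are not independent. A match describes letters only and says nothing of binding. Shown 5′ to 3′ with the core in capitals are 3 genes lower in L and bi (Bnip3 on the minus strand at chr7:138909457-138909756, P4ha1 on the plus strand at chr10:59323046-59323345, Pdk1 on the plus strand at chr2:71872974-71873273), the gene with the largest rise there (Ldhb on the minus strand at chr6:142507908-142508207), and the gene higher with MYC, described next (Aldoc on the plus strand at chr11:78322823-78323122). Each is shown in its window with the most matches, which was also its most upstream.
Bnip3: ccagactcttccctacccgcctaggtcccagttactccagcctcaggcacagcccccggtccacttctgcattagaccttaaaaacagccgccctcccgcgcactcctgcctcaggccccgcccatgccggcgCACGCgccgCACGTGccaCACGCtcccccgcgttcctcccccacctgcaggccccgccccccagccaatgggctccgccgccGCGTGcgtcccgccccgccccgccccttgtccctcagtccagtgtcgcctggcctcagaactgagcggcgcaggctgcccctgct
P4ha1: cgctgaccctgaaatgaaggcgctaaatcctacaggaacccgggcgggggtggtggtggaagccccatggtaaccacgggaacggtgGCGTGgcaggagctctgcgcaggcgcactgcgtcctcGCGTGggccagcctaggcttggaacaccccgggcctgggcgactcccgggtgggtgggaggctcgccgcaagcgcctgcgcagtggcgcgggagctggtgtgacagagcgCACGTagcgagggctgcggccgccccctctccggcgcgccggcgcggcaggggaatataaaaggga
Pdk1: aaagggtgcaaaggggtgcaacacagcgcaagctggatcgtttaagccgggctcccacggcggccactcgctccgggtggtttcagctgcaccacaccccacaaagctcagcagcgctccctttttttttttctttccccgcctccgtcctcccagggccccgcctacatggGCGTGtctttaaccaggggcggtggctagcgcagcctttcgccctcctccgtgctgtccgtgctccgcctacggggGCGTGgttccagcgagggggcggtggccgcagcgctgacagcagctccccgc
Ldhb: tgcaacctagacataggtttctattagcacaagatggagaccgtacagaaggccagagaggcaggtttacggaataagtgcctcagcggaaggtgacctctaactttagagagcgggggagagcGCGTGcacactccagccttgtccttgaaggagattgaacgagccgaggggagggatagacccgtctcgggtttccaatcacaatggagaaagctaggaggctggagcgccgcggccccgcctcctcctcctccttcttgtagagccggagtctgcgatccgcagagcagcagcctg
Aldoc: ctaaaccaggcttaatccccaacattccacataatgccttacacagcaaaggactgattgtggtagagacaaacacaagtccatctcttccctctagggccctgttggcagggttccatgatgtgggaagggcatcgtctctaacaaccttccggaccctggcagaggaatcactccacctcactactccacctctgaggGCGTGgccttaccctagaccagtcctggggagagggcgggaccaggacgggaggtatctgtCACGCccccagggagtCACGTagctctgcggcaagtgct
Bnip3 had 5 matches, the palindrome included, P4ha1 had 3, Pdk1 had 2, Ldhb had 1 and Aldoc had 3. Eno2 and Car12 had none in their windows, and Ldha, which was not called, had 7 in one of its 2 windows.

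Between bi and L, edgeR called none of the 40 genes, against 0.495% of all tested genes higher in bi and 0.256% lower. The median log2 fold change was 0.03, against 0.0007 over all tested genes. At an unadjusted p under 0.05, 5 of the 40 passed, against 8.65% of all tested genes. DESeq2 called 1 of the 40 and limma-trend none. Adm had the smallest p. It was at 2.08, 0.310 and 0.963 CPM in the MYC, Her2 and control libraries of bi and 3.62, 2.29 and 2.14 CPM in those of L (log2 fold change -1.58 ± 0.40, adjusted p = 0.148 by edgeR; 0.00465 by DESeq2). Ldhb (-0.58, adjusted p = 0.283 by edgeR) and Car9 (-1.20, adjusted p = 0.382 by edgeR) came next. Car9 was at 8.54, 3.44 and 3.93 CPM in bi and 8.76, 21.7 and 6.74 CPM in L, where L Her2 was the highest library.

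Aldoc, the gene of aldolase C, was the only one of the 40 called by edgeR between the MYC and control arms, and it was higher with MYC. Among all tested genes, 0.101% were higher with MYC and 0.264% lower. The median log2 fold change of the 40 was 0.18, against 0.03 over all tested genes. At an unadjusted p under 0.05, 11 of the 40 passed, against 13.9% of all tested genes. Aldoc was at 49.0, 65.8 and 57.8 CPM in the MYC libraries of bi, L and B, and at 11.1, 16.2 and 29.0 CPM in the controls in the same order. Every MYC library lay above every control, with the smallest difference in B. Aldoc rose (log2 fold change 1.71 ± 0.24, adjusted p = 0.0283 by edgeR). The call was lost without L control, L MYC, bi control or bi MYC (adjusted p = 0.0829, 0.0994, 0.179 and 0.207 by edgeR). The 11 hypoxia response genes had a median of 0.69, with none called. Aldoa, the isozyme with far more reads, had a log2 fold change of 0.26 and was not called.

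In the MYC arm against the Her2 arm, 3 of the 40 were higher (7.5%) and 1 was lower (2.5%), against 2.44% and 2.13% of all tested genes. The median log2 fold change was 0.11, against 0.02 over all tested genes, and it was below 0 without B MYC, B Her2 or bi MYC (-0.04, -0.06 and -0.06). This comparison shares the MYC libraries with the previous one. Aldoc was at 49.0, 65.8 and 57.8 CPM in the MYC libraries of bi, L and B and 14.0, 19.0 and 20.1 CPM in the Her2 libraries (log2 fold change 1.72 ± 0.24, adjusted p = 0.00677 by edgeR). Its call held without each library in turn. Car12, whose carbonic anhydrase acts on pH outside the cell, was at 356, 290.4 and 402 CPM in the MYC libraries and 91.6, 69.6 and 198 CPM in the Her2 libraries. The arms did not overlap, and Car12 was higher with MYC (log2 fold change 1.72 ± 0.30, adjusted p = 0.0151 by edgeR). Vegfa, the vascular growth factor gene, was at 229, 137 and 216 CPM in the MYC libraries and 326, 421 and 507 CPM in the Her2 libraries, without overlap. It was lower with MYC (log2 fold change -1.11 ± 0.23, adjusted p = 0.0285 by edgeR). Ldhb was at 13.6, 22.2 and 5.90 CPM in the MYC libraries and 8.43, 11.6 and 2.74 CPM in the Her2 libraries. It was higher with MYC than with Her2 in each population, and the ranges of the arms overlapped across populations (log2 fold change 0.91 ± 0.19, adjusted p = 0.0283 by edgeR). Each MYC library lay below the control of its own population for Ldhb (log2 fold change -0.265 in MYC against control, adjusted p = 0.596 by edgeR). Car12 lost its call without L Her2, bi MYC or bi Her2 (adjusted p = 0.0852, 0.0968 and 0.0502 by edgeR), Vegfa without B MYC, L MYC or L Her2 (0.0835, 0.113 and 0.0879), and Ldhb without any 1 of B MYC, L control, L MYC, L Her2, bi MYC and bi Her2 (0.0509 to 0.165). Without L MYC, L Her2, bi MYC or bi Her2, edgeR called 2 of the 40.

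No gene of the 40 was called between the Her2 and control arms by edgeR, which called 0.0126% of all tested genes higher with Her2 and 0.00839% lower. The median log2 fold change was 0.08, against -0.01 over all tested genes. At an unadjusted p under 0.05, 6 of the 40 passed, against 8.8% of all tested genes. DESeq2 called 2 of the 40 and limma-trend none. Ldhb had the smallest p. It was at 8.43, 11.6 and 2.74 CPM in the Her2 libraries of bi, L and B and 18.3, 27.2 and 6.22 CPM in the controls. Each Her2 library lay below the control of its own population (log2 fold change -1.17 ± 0.19, adjusted p = 0.0629 by edgeR; 0.000262 by DESeq2). Vegfa (0.76, adjusted p = 0.293 by edgeR) and Car12 (-0.97, adjusted p = 0.293 by edgeR) followed. The 11 hypoxia response genes had a median of 0.55, with none called.

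Within 1 population an oncogene library and its control are single libraries, so their ratios have no test. Ratios are log2 of CPM with a prior count of 2, and counts are of ratios of at least 2-fold. All 3 populations were compared with their own control, so the MYC and Her2 ratios of a population share it. The median log2 ratio of the 40 genes was 0.31, -0.19 and 0.26 for MYC in bi, L and B, and -0.10, 0.40 and -0.03 for Her2.

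In bi, MYC gave the most genes past 2-fold. There 12 of the 40 were higher than in the bi control and none lower, against 8.86% and 6.29% of all tested genes. Ndufa4l2 was at 18.8 CPM in bi MYC and 0.533 CPM in the bi control, from 953 and 50 reads (log2 ratio 5.06). Aldoc was at 49.0 and 11.1 CPM (2.14) and Slc2a1 at 359.8 and 132 CPM (1.44). The other 9 were Eno2 (1.88), Egln3 (1.61), Car12 (1.61), Bnip3 (1.39), Slc16a3 (1.13), Car9 (1.11), Adm (1.09), Pdk1 (1.06) and Ndrg1 (1.03). Of the 12, 6 belong to the hypoxia response, as do 11 of the 40. Ndufa4l2, Egln3, Eno2, Slc2a1, Bnip3, Pdk1 and Car12 were lower in bi than in B over the 3 arms. That comparison holds the same bi MYC and bi control libraries, and a low bi control enters both, so the overlap is not independent. Fibroblast markers summed to 39.3 CPM in bi MYC and 30.4 CPM in the bi control, and they did not move together. Pdgfra was higher in bi MYC (28.9 and 11.8 CPM), as was Dcn (2.17 and 0.672). Col1a1 (4.46 and 11.8), Pdgfrb (2.35 and 4.03), Col3a1 (0.453 and 0.928) and Col1a2 (0.138 and 0.407) were lower, and Thy1 was at 0.802 and 0.759 CPM. The sort marker gene Ly6a was at 139 and 18.4 CPM. Epcam was at 252 and 336 CPM and Cdh1 at 321 and 265 CPM. The part of these markers in the ratios was not tested.

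In L, MYC gave 2 of the 40 genes higher and 1 lower, both below the shares of all tested genes (7.65% and 3.84%). Aldoc was at 65.8 CPM in L MYC and 16.2 CPM in the L control (2.02), and Ndufa4l2 at 2.31 and 0.871 CPM (1.38). Egln3 was lower, at 6.53 and 14.4 CPM (-1.14). In B, MYC gave none of the 40 lower, against 11.7% of all tested genes, and 2 higher, near the share of 4.43%. These were Slc16a1 (1.18) and Eno2 (1.04). B MYC was the library in which 18 of the 40 genes had their highest level, and L MYC that in which 16 had their lowest. The same shares over all tested genes were not computed, so these counts have no background beside them.

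In L, Her2 gave 7 of the 40 genes higher, against 6.92% of all tested genes, and 2 lower, near the share of 6.17%. Ndrg1 was at 179 CPM in L Her2 and 33.3 CPM in the L control (2.43), and Car9, a pH-regulating carbonic anhydrase gene, at 21.7 and 6.74 CPM (1.69). P4ha2 (1.33), Eno2 (1.07), Bnip3 (1.04), Slc2a1 (1.03) and Egln3 (1.01) were the other 5, and Ldhb (-1.22) and Car12 (-1.28) were lower. In B, Her2 gave 1 of the 40 genes higher, below the 5.22% of all tested genes, and 6 lower, near the share of 11.7%. Ero1l, an oxidase of the endoplasmic reticulum, was at 356 CPM in B Her2 and 97.8 CPM in the B control (1.87). Epas1, which encodes HIF-2 alpha, was at 10.2 and 52.1 CPM (-2.36), and B Her2 was the lowest of its 9 libraries. Ankrd37 (-1.97), Ndufa4l2 (-1.84), Ldhb (-1.17), Car12 (-1.17) and Slc2a3 (-2.02, from 5.4 and 27.2 reads) were the others that were lower. In bi, Her2 gave none of the 40 higher, against 9.62% of all tested genes. It gave 2 lower, Adm (-1.55) and Ldhb (-1.11), near the share of 3.99%. Ldhb was thus past 2-fold lower in the Her2 library of each population.

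**Figure D4:**
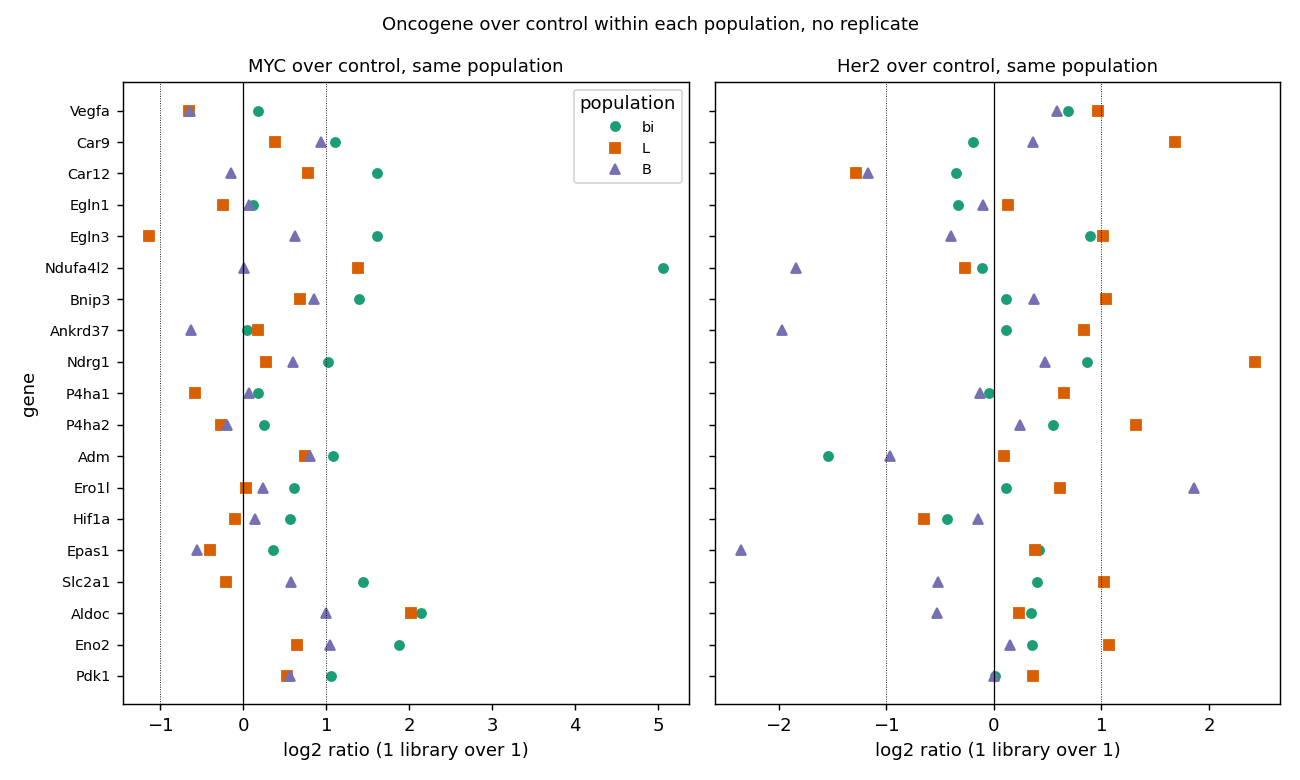
Log2 ratio of MYC (left) and Her2 (right) over the control library of the same population (horizontal axis) for 19 genes (vertical axis), with 1 library over 1 per point and dotted lines at 2-fold. In bi MYC, Ndufa4l2 lies at 5.06, and in L Her2, Ndrg1 lies at 2.43.

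Isozyme shares were computed per exonic length of the annotated gene. That length is 7779 bases for Pdk1 and 2561 for Pdk3, while the deposited lengths are 510 to 555 and 695 to 705. For Slc16a1 and Slc16a3 it is 4426 and 5318, and the deposited lengths are 4426 and 269 to 288. The size of a share, and which gene of a pair is the larger, can thus depend on the length used. Egln3 made up 15.3% to 33.7% of Egln1 and Egln3 together in bi, 12.3% to 32.4% in L and 51.8% to 66.0% in B. Eno2 made up 0.517% to 2.98% of both enolase genes in bi and L, against 4.26% to 7.87% in B, without the copies of Eno1, so Eno1 was the larger of the pair in every library. Ldhb was at most 4.95% of Ldha and Ldhb together, in L MYC, and 0.568% in B Her2. Aldoc was 3.72%, 6.69% and 3.99% of both aldolase genes in bi, L and B MYC, and 1.09%, 1.54% and 2.88% in the controls. Slc2a1 was at least 99.8% of both glucose transporter genes. Car9 reached 50.8% of both carbonic anhydrase genes in L Her2 and 2.78% to 11.6% in the other libraries. Pdk1 was 20.9% to 39.9% of Pdk1 and Pdk3 in bi and L, and 36.4% to 44.5% in B. Hk2 held 27.5% to 48.9% of the hexokinase pair, with its highest share in L Her2. Per exonic length, Pfkl was the main phosphofructokinase gene (56.5% to 70.9%) and Pfkfb3 the larger of its pair (57.5% to 79.9%). By the same measure the larger were Slc16a1 of the monocarboxylate transporters (60.4% to 86.0%), P4ha1 of the collagen prolyl hydroxylases (74.0% to 85.6%) and Hif1a of the alpha subunits (79.3% to 97.1%).

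Several abundant enzyme genes have near-identical copies elsewhere in the genome, between which reads can be split. Gapdh shares at least 100 bases at 97% identity or more with 104 other genes, which held 259% as many reads as Gapdh itself. For Eno1, 3 such genes, Eno1b among them, held 164% as many, and for Pgk1 they held 8.5%. With copies of at least 500 shared bases added, Gapdh was at 2223 to 3808 CPM and Eno1 at 1283 to 2399 CPM, of which the annotated gene held 26.2% to 29.4% and 36.3% to 41.6%. In L against B the sums had log2 fold changes of 0.11 for Gapdh, -0.03 for Eno1 and -0.41 for Pgk1, and edgeR called none of them in any of the 6 comparisons. Slc2a3 shares short stretches with 2 genes, Snf8 (178 bases) and Dpep2 (105 bases), which held 19060 reads over all libraries, against 214 for Slc2a3, so its level is uncertain.

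**Figure D5:**
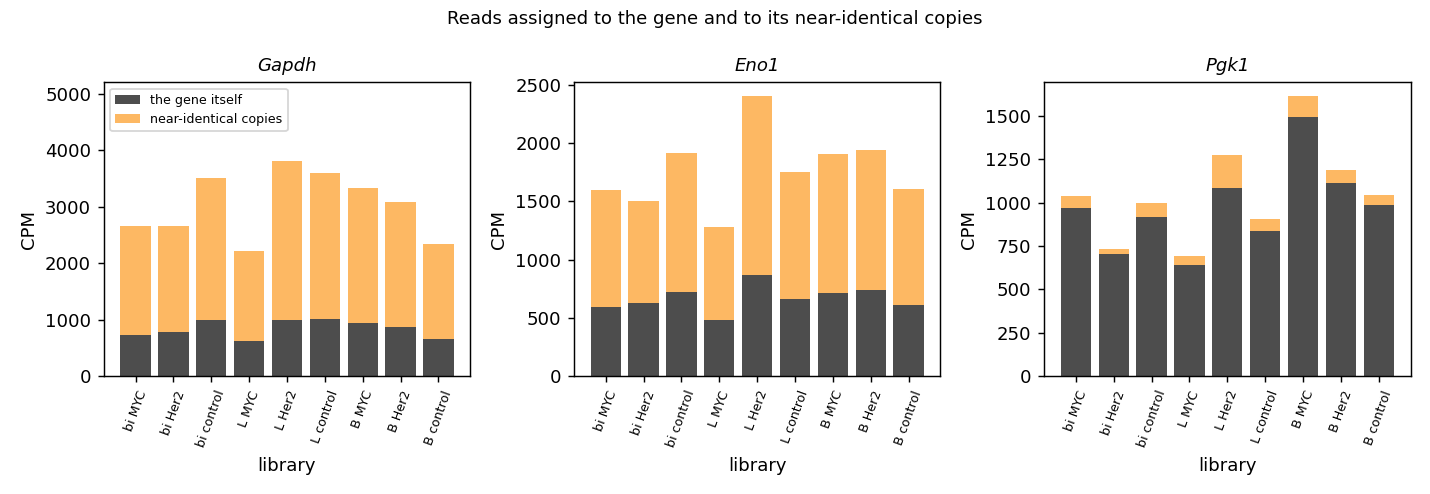
CPM (vertical axis) in each library for Gapdh, Eno1 and Pgk1, with the annotated gene in grey and its near-identical copies stacked in orange. The copies hold the larger part for Gapdh and Eno1 and a small part for Pgk1.

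Other genes of the pathways were read from 6 further lists, and their counts in L against B stand beside 11.5% of all tested genes higher and 9.26% lower, with a median of 0.04. Of 20 further glycolysis and transporter genes tested, 3 were higher (15%) and 3 lower (15%) in L than in B, with a median of -0.15. Slc16a7, another monocarboxylate transporter gene, rose to a mean of 4.58 CPM in L, against 0.654 CPM in B (log2 fold change 2.47 ± 0.49, adjusted p = 0.00600 by edgeR), and Slc2a10, of the glucose transporter family, fell at levels under 0.5 CPM (log2 fold change -1.47 ± 0.44, adjusted p = 0.0408 by edgeR). The call of Slc2a10 was lost without any 1 library but bi Her2 (adjusted p = 0.0704 to 0.245 by edgeR). Of 11 genes for the entry of pyruvate into mitochondria, 2 were higher (18.2%) and 1 lower (9.09%), with a median of -0.20. Pdk4, a pyruvate dehydrogenase kinase gene, rose to a mean of 31.3 CPM in L, against 3.25 CPM in B (log2 fold change 3.35 ± 0.37, adjusted p = 0.000213 by edgeR), and Pdk2 fell to 4.26 CPM in L, against 12.4 CPM in B (log2 fold change -1.74 ± 0.35, adjusted p = 0.00613 by edgeR). Pdk4 and Pdk2 thus moved in opposite directions, Pdk2 in that of Pdk1. Of 12 regulators and partners of HIF, with a median of -0.09, 1 was lower (8.33%, near the share of all tested genes), Arnt2 (log2 fold change -2.83 ± 0.33, adjusted p = 0.000311 by edgeR), which encodes a partner of the alpha subunits.

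Of 29 further known HIF targets, 7 were higher (24.1%) and 9 lower (31%) in L than in B, against 11.5% and 9.26% of all tested genes, with a median of -0.26. The endothelin gene Edn1 rose to a mean of 12.4 CPM in L, against 0.159 CPM in B (log2 fold change 6.52 ± 0.65, adjusted p = 0.000123 by edgeR). In bi against B, 3 were higher (10.3%) and 7 lower (24.1%), against 7.88% and 5.11% of all tested genes. Of 16 genes of the tricarboxylic acid cycle, with a median of 0.01, 1 was lower in L (6.25%, below the 9.26% of all tested genes), Suclg2 (log2 fold change -0.67 ± 0.18, adjusted p = 0.0246 by edgeR), and of 7 genes of the pentose phosphate pathway, with a median of 0.19, 1 was higher (14.3%), Rpia (log2 fold change 1.60 ± 0.21, adjusted p = 0.000590 by edgeR), and 2 were lower (28.6%), G6pdx (log2 fold change -0.81 ± 0.23, adjusted p = 0.0312 by edgeR) and Pgd (-0.72). The call of Suclg2 was lost without B MYC, B Her2, L control, L MYC or L Her2 (adjusted p = 0.117, 0.101, 0.0843, 0.114 and 0.0693 by edgeR) and that of G6pdx without B MYC, B Her2, L MYC or L Her2 (0.103, 0.154, 0.134 and 0.0761). In bi against B, the glycolysis list had 2 of 20 higher, the pyruvate entry list 2 of 11 higher and 1 lower, the regulators 1 of 12 lower (Arnt2), the cycle 1 of 16 lower (Suclg2) and the pentose phosphate list 1 of 7 higher (Rpia), against the same 7.88% and 5.11%. Between arms, the genes called on these lists were Tfrc (lower with MYC than in control, -1.09) and, in MYC against Her2, Pdk2 (1.72), Ldhd (1.43), Eno3 (-1.38), Tfrc (-0.96), Anxa2 (-1.63) and Ier3 (-2.24), and in bi against L Pdk4 was lower (-1.92). These last names were chosen after their values were seen.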

How the data were processed

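Stranded total RNA libraries were made with ribosomal RNA depletion, per the labels' protocols, although the molecule label reads polyA, and 2 RNA isolation kits were used without a record of which library had which. Reads were quantified by the authors with Salmon 0.9.1 on mm10, per the submitters' processing notes, with the annotation release not given in the sources used here. The deposited expected count per gene was used, rounded to whole numbers, and per the file headers the deposited files also hold TPM, which was not used because the deposited gene lengths (weighted by isoform abundance) fall as low as 66.1 bases for Gapdh. Symbols were matched for 53544 genes by versioned identifier and 563 without the version, and 174 had none. Low genes were removed by arm with filterByExpr, at a count of 10 and a total of 15 reads, and the rest scaled with TMM and tested with edgeR 4.0.16 in R 4.3.3 in an additive model of population and arm. SE is the size of the log2 fold change divided by the square root of F. Alternatives used limma 3.58.1 and DESeq2 1.42.0. The test was tried on simulated counts without an arm effect that differs between populations, so that trial does not cover such effects. Near-identical copies were found by aligning annotated transcripts with blastn. Totals of 46915316 to 98874101 reads leave counting error small for all but the lowest genes, and with 1 library per population and arm p-values measure only the spread between these libraries.

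The 40 members, the other lists and the alternatives were chosen with earlier results of these data known. Named with full statistics were the called members, up to 8 a direction, or the 3 smallest p where none passed. Further called members, and the called gene of each other list with the largest rise and fall, are named beside them, except 1 gene that is not reported here.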

Additional observations from a re-analysis of the deposited data

Results flagged for a closer look

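Egln3 moved in opposite directions with MYC in L and bi. In B it was higher with MYC by less than 2-fold (180.5 and 117 CPM, log2 ratio 0.62). It was at 6.53 CPM in L MYC and 14.4 CPM in the L control, a log2 ratio of -1.14, and at 35.1 CPM in bi MYC and 11.5 CPM in the bi control, a log2 ratio of 1.61. Each ratio rests on 1 library over 1, and the difference between populations was not tested.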

How the results depend on the processing

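Calls among the 40 genes numbered 17 in L against B and 11 in bi against B, and stayed at 15 to 20 and 11 to 16 under other scalings, no low-count filter, DESeq2, limma-trend, the 6 libraries compared alone and added near-identical copies (an alternative chosen after seeing the data). Without 1 library they ranged from 11 to 17 and from 4 to 14. In bi against L the count was 0, and 1 without a filter and 1 by DESeq2, with 0 to 0 without 1 library. In MYC against control it was 1, and 5 without a filter, 4 by DESeq2 and 4 with 6 libraries, with 0 to 2 without 1 library (2 without B Her2). In Her2 against control it was 0, and 4 without a filter and 2 by DESeq2, with 0 to 0 without 1 library. In MYC against Her2 it was 4, and 8 without a filter and 7 by DESeq2, with 2 to 5 without 1 library. Over all tested genes, calls numbered 179 in bi against L, 87 in MYC against control and 5 in Her2 against control, and 698, 944 and 619 without a filter and 663, 966 and 509 by DESeq2. The median of the 40 in MYC against Her2 changed sign to -0.0438 without B MYC, -0.061 without B Her2 and -0.0557 without bi MYC, and reached 0.3554 without L MYC. The cause of these shifts was not tested. Pfkm lost its call in L against B with RLE size factors, by DESeq2 and with 6 libraries (adjusted p = 0.0542, 0.0519 and 0.0659), Pgam1 with 6 libraries (0.0682), Car12 in bi against B with library totals (0.0504), and Ldhb in MYC against Her2 with 6 libraries (0.0568). Counts past 2-fold within a population were the same with a prior count of 0.5. The comparisons above are already blocked, populations by arm and arms by population. No further pairing by replicate number was possible because each population and arm has 1 library. Slc2a3, Adm and Ankrd37, with as few as 5.4, 22.7 and 49 reads in a library, are limited by depth.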
